A study of Mus musculus with 21 samples.

Results

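The dual-specificity MAPK phosphatases (DUSPs) were followed through acquired resistance to MEK inhibition (MEKi) and its loss in murine pancreatic ductal adenocarcinoma (PDAC) cells. The members were the rows of the expression table with the symbols Dusp1, Dusp2, Dusp4, Dusp5, Dusp6, Dusp7, Dusp8, Dusp9, Dusp10 and Dusp16, and all 10 were found among 34478 listed genes. Bulk mRNA was sequenced from 21 samples of 6 primary cell lines, #3, #4, #6, #7, #9 and #10. Parental cells had never met the MEK inhibitor, resistant cells were kept in trametinib at 100 times the IC50 of their line, and the P5 and P12 cells were resistant cells taken off the drug for 5 and 12 passages. Parental, resistant and P12 cells were measured in all 6 lines and P5 cells in 3, #3, #7 and #9. For P5 of #7 and #9 a second label gives 12 passages, and the name P5 was kept for both.

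All samples, parental cells included, carry the same alleles, among them Ptf1a wt/Cre and Trp53 loxP/loxP. In such mice Cre is made from the Ptf1a locus, which is active in pancreatic progenitors and acinar cells, so that the tumours arise in the pancreas. The lines are tumour cells grown out in culture, without the stroma and immune cells of a tumour, and the study describes the resistant populations, from genome sequences of #3 and #9, as each grown from a single clone. There was 1 library per line and state, so that the lines are the replicates and the p-values speak of the spread between 6 lines. In bulk RNA, fewer cells with a transcript and less transcript per cell cannot be told apart.

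The products of these genes remove the phosphates from both the threonine and the tyrosine of the activation loop of MAP kinases and so switch the kinases off. Several of the genes are themselves transcribed when ERK is active, which makes them negative feedback regulators of the pathway and common readouts of its activity. DUSP6, DUSP7 and DUSP9 are cytoplasmic and act mainly on ERK. DUSP1, DUSP2, DUSP4 and DUSP5 are nuclear and inducible, with DUSP5 acting on ERK only and the others on more than one kind of MAP kinase. DUSP8, DUSP10 and DUSP16 act mainly on the stress-activated kinases JNK and p38. Trametinib blocks MEK, the kinase that activates ERK.

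The annotated genes lie, in GRCm38 (GENCODE M21), at chr10:99263231-99267489 (Dusp6, plus strand), chr9:106368632-106375724 (Dusp7, plus), chrX:73639419-73643514 (Dusp9, plus), chr17:26505590-26562128 (Dusp1, minus) and chr2:127336159-127338376 (Dusp2, plus). The others lie at chr8:34807297-34819894 (Dusp4, plus), chr19:53529109-53542431 (Dusp5, plus), chr7:142079490-142095843 (Dusp8, minus), chr1:184013302-184075636 (Dusp10, plus) and chr6:134715468-134792625 (Dusp16, minus). Values were given per gene and cover all annotated transcripts. Regions that the study chose for targeted methylation measurements, after work on #3 and #9, lie in an exon of Dusp6, in an exon and an intron of Dusp2 and in an intron of Dusp4. Per the study's methods, these regions were picked for reversion in P12 and conservation in humans. Regions beside a transcript whose expression also reverted in P12 were preferred, so the choice was not independent of the RNA values below. Their methylation was not analysed here.

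Promoter sequences of RefSeq (GRCm38.p6) could be matched for 8 members and cover 250 bases before the RefSeq transcript start used. For Dusp1, Dusp8 and Dusp10 the window lies inside the annotated gene, whose span begins further upstream. Other starts were not searched. They are shown for 4 members that differ in their response below: Dusp6, which fell most steeply with Dusp4, Dusp5, which fell less, and Dusp8 and Dusp1, which were higher in most resistant samples. Each is written 5′ to 3′ on the strand of its gene, and annotated exon bases at the end of the Dusp5 and Dusp1 windows were left out, so that the runs cover chr10:99262981-99263230 (plus), chr19:53528895-53529108 (plus), chr7:142095285-142095534 (minus) and chr17:26508520-26508722 (minus). Capitals mark matches, on either strand, to the cAMP response element (CRE) TGACGTCA, its core TGACG and the CArG box of the serum response factor.
Dusp6: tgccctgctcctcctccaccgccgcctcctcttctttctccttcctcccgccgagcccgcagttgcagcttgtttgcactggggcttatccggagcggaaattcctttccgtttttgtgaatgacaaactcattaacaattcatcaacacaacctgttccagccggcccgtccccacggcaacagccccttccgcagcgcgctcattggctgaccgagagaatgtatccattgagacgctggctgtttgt
Dusp5: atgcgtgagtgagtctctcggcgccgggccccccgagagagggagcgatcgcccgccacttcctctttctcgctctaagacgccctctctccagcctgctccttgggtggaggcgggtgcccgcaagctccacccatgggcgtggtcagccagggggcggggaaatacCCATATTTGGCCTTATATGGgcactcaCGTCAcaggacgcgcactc
Dusp8: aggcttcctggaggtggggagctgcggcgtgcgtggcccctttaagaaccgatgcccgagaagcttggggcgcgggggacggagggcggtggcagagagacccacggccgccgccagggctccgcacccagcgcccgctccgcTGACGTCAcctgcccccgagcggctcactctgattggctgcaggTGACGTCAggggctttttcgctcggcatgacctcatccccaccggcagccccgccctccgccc
Dusp1: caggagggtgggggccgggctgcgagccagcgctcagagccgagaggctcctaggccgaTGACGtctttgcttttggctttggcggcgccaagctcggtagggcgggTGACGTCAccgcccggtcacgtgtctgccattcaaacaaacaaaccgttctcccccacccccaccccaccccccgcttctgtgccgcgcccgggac

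The full CRE was found in 2 of 8 windows, with 2 matches in Dusp8 and 1 in Dusp1, while 1.55% of all 32851 promoter windows of the same length held it. The core, which is also counted inside each full CRE, was found in 4 windows (Dusp8, Dusp1, Dusp5 and Dusp16) and in 17.8% of all. Dusp5 held 2 CArG boxes side by side, in the stretch from 82 to 63 bases before the start, and 1.47% of all windows held at least 1. A strict form of the ETS site, CCGGAA (12.0% of all windows), and the AP-1 site, searched as TGACTCA and TGAGTCA (4.46%), were in none of the 8 windows. Shorter ETS forms such as GGAA were not searched, and these letters do stand in the Dusp6 window. The E-box CACGTG was in Dusp2 and Dusp1 and in 6.02% of all windows, the CAAT box CCAAT in 5 of 8 and 33.8%, and the GC box GGGCGG in 6 of 8 and 32.7%. The GC content of the 8 windows ran from 56.4% (Dusp6) to 77.2% (Dusp7), with 71.6% in Dusp8 and 68.4% in Dusp1. The median over all windows was 52.4%. The shares over all windows were not matched for GC content, and its part in the counts was not tested. These are matches of letters in a short window and say nothing on binding or on sites elsewhere.

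**Figure D1:**
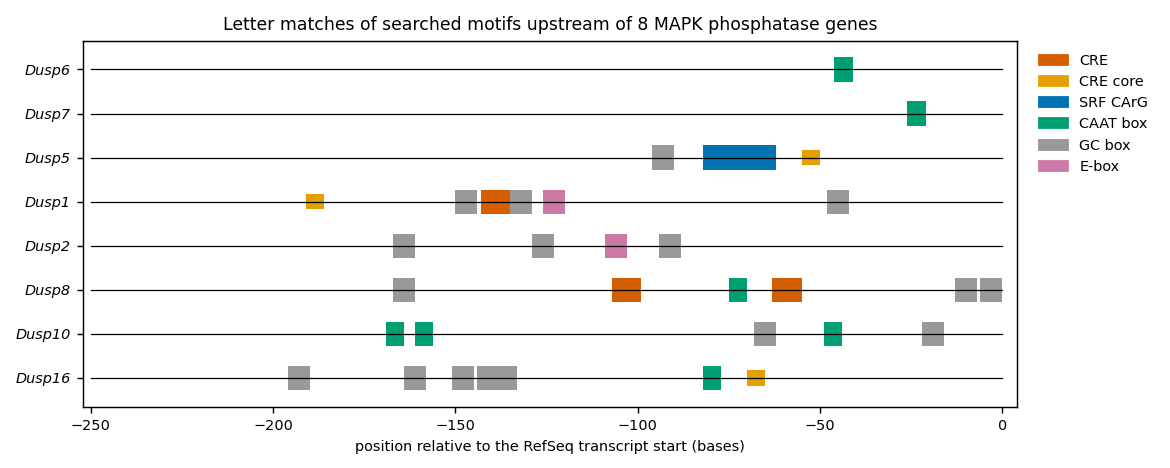
Positions of motif matches in the 250 bases before the RefSeq transcript start of 8 MAPK phosphatase genes, with the distance from the start in bases on the x axis and 1 line per gene; coloured blocks are matches on either strand. The full CRE lies in Dusp8 (2 matches) and Dusp1 (1 match), the paired CArG boxes in Dusp5, and Dusp6 and Dusp7 hold 1 CAAT box each.

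The values are the counts per gene after the study's normalization, which adjusts for library size, and they carry no p-value of their own. The depth was estimated from the spacing of low values at 24.0 to 42.6 M reads per sample, and 3 reads were worth 2.31 to 4.07 normalized counts. A level at or below this floor was not told apart from 0, and the floor covers counting error only. Differences are log2 fold changes of (normalized count + 1) with their standard error (SE) from limma, fitted on 19300 genes and adjusted by Benjamini-Hochberg over all of them. A gene was called when its adjusted p was below 0.01 and it changed by more than 1 on the log2 scale. All 10 members passed the filter on low values. Dusp2 reached a normalized count of 10 in 9 of 21 samples, and Dusp4 in 18.

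Before the results, the cells were checked against marker genes. Parental samples had high keratins in 5 lines, while #9 stood apart with Krt8 at 546 against 73967 to 92917 in the other lines, and with Cdh1 at 816 against 26491 to 53229. Epcam was listed at 0 in all parental, resistant and P12 samples, which may be a property of the quantification and was not tested. Of 5 immune genes in the table, the summed level stayed between 131 and 413 in the 21 samples and Cd3e was at most 4.60. The summed level of 8 fibroblast genes ranged from 96.3 to 10398 in parental and from 1896 to 503995 in resistant samples, with 1 of 7 tested genes called higher (Dcn), and that of 8 ductal genes from 18440.0 to 294804 and from 1821 to 210821, with 2 of 7 called lower (Muc1 and Sox9). When the lines entered as a block, 5 of 7 ductal genes were called lower, Cdh1, Krt8 and Krt18 in addition, and 2 of 7 fibroblast genes higher, with Col1a1. Of 8 mesenchymal genes 1 was called higher, Cdh2 (1.77, SE 0.31, adjusted p 0.000894 in limma), and their sum ran from 66380 to 252386 in parental and from 94424 to 339021 in resistant samples. Of 5 endothelial genes 1 was called higher, Tek (5.90, SE 1.14, adjusted p 0.002), and the highest sum was 2757 in resistant and 180.5 in parental samples. Off the drug the ductal sum stayed under the parental median, with medians of 255894 in parental, 62719 in resistant, 24315 in P5 and 52845 in P12 samples, and the fibroblast sum had medians of 456, 88955, 31722 and 26211. The part of these marker levels in the differences below was not tested. Trp53, the floxed tumour suppressor of the model, had a median of 325 in parental and 321 in resistant samples.

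Several members fell in resistant cells and 1 rose. Against parental cells, 5 of 10 members were called, 4 lower (Dusp4, Dusp6, Dusp7 and Dusp9) and 1 higher (Dusp8), where 5.30% of all tested genes were called, 2.73% lower and 2.57% higher. The parental and resistant ranges did not overlap for the same 5 members. Overlap was not counted over all tested genes, here or in the comparisons below, so it only describes the members. With the cell line as a block, which compares each line with itself, Dusp5 (lower) and Dusp1 (higher) were called as well, which gave 7 of 10 members against 10.5% of all genes. Dusp2, Dusp10 and Dusp16 were called in neither fit.

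**Figure D2:**
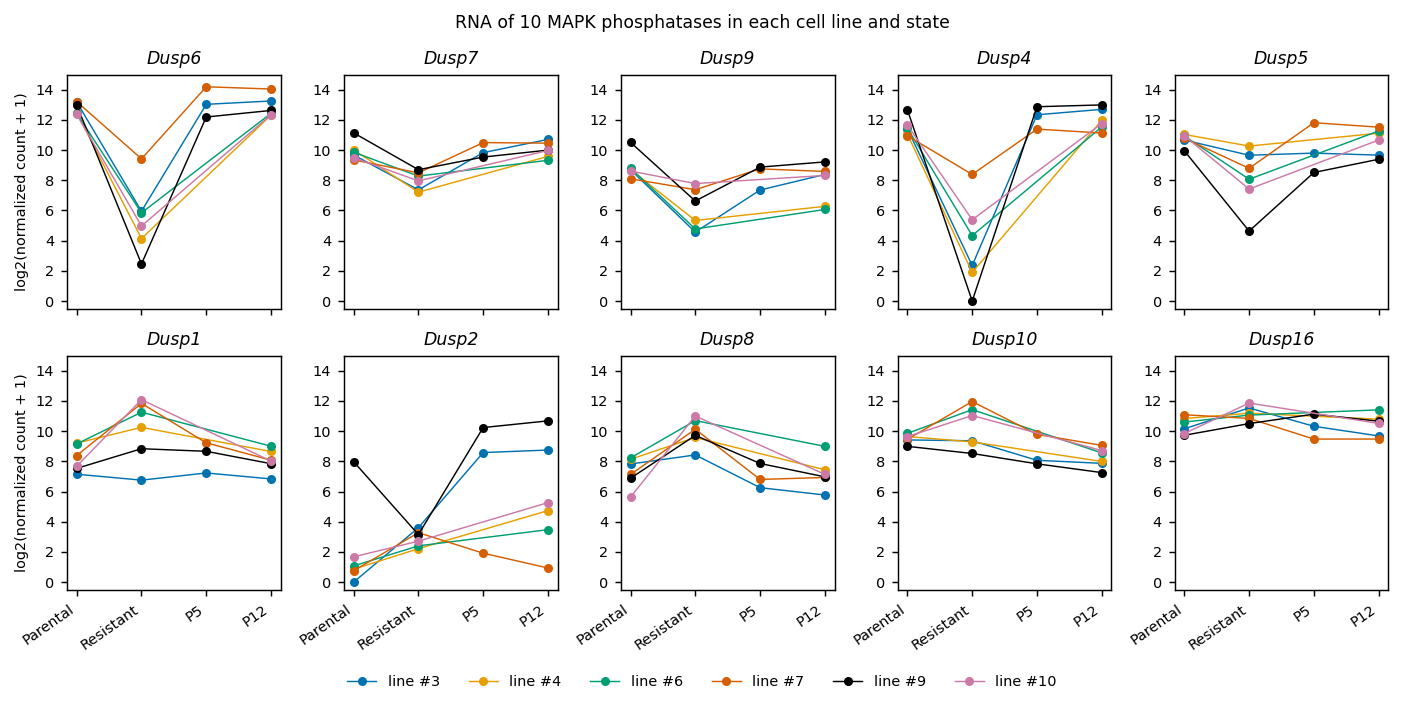
Level of each of the 10 members, as log2(normalized count + 1) on the y axis, in the parental, resistant, P5 and P12 state on the x axis; each point is 1 sample and lines join the samples of a cell line. Dusp6 and Dusp4 drop in all 6 lines and return, Dusp8 and, in 5 of 6 lines, Dusp1 are higher in resistant cells, and Dusp2 is highest in P12 of #9 (1640.0 normalized counts).

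Dusp6, a cytoplasmic phosphatase highly selective for ERK, was the most abundant member in parental cells. Its normalized count ranged from 5249 (#10) over a median of 6849.7 to 9449 (#7) in parental cells and from 4.49 (#9) over 43.4 to 681 (#7) in resistant cells. All resistant samples lay below all parental samples, and #7 kept more than 10 times the level of any other resistant line. The ratio of parental to resistant cells within a line ran from 13.9 in #7 to 1792 in #9. The log2 fold change was -7.31 (SE 0.75, adjusted p 6.31e-06 in limma), with a fall in 6 of 6 lines. After withdrawal Dusp6 stood at 8352 (#3), 18671 (#7) and 4664 (#9) in P5, and in P12 it ranged from 5098 (#4) over 5913 to 16848 (#7). Every drug-free sample lay above every resistant sample, and #7 was highest in all 4 states.

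Dusp7, the closest relative of Dusp6 in the cytoplasm, fell in all lines but by much less. Parental values ran from 651 (#7) over a median of 871 to 2253 (#9), and resistant values from 147 (#4) over 278 to 414 (#9). The groups did not overlap, and #9 was highest in both. Its log2 fold change was -1.92 (SE 0.33, adjusted p 0.000765), and the 6 lines lay between -2.80 and -0.86. P12 values returned to 638 to 1666 with a median of 1011.

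Dusp9, the X-linked cytoplasmic member, was lower still in level. Parental values ran from 273 (#7) over 415 to 1457 (#9), and resistant values from 22.7 (#3) over 68.5 to 219 (#10). No resistant sample reached a parental one, but the fall was 10.6 to 18.2 times in #3, #4, #6 and #9 and only 1.66 and 1.78 times in #7 and #10. In limma the log2 fold change was -2.83 (SE 0.64, adjusted p 0.00577). The call was lost without #3, #4, #6 or #9 (adjusted p 0.0344, 0.0234, 0.0252 and 0.0147) and without the parental sample of #9 alone (0.0132). In P12 the gene ranged from 65.9 (#6) over 326 to 593 (#9), and #4 and #6 stayed below every parental sample.

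Dusp4, a nuclear phosphatase acting on ERK and JNK, showed the largest fitted fall of the 10. Parental values ran from 1975 (#7) over 2749 to 6482 (#9). In resistant cells Dusp4 was listed at 0 in #9, at 2.71 in #4 and 4.12 in #3, followed by 19.2 (#6), 40.7 (#10) and 333 (#7). The groups were far apart, and the levels of #4 and #9 were at or under the floor of 3 reads. Against that floor, resistant cells of #9 were at least 1718-fold lower and those of #4 at least 521-fold lower than their parental cells, while #7 was 5.94-fold lower. The log2 fold change was -7.80 (SE 0.92, adjusted p 2.99e-05), a size that depends on the pseudocount and lay between -8.85 and -6.73 over the alternatives. P5 values were 5165 (#3), 2676 (#7) and 7473 (#9), and P12 values ran from 2235 (#7) over 3725 to 8125 (#9).

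Line #7 thus kept the most Dusp4 and Dusp6 under the drug. The least Dusp6 was left in #9, and for Dusp4 #4 and #9 could not be ranked, both being at or under the floor. The same line #7 also had the highest summed ductal markers of the resistant samples (210821, against 1821 in #9), and the lowest summed fibroblast markers (1896, against 503995 in #9). The part of these marker levels in the difference between the lines was not tested.

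Dusp5, a nuclear phosphatase for ERK alone, fell in 6 of 6 lines with a wide spread. Parental values were close together in 5 lines, 1619 to 2091, with #9 at 989.9. Resistant values were 23.8 (#9), 170.0 (#10), 267 (#6), 442 (#7), 805 (#3) and 1228 (#4). The states overlapped because #4 under the drug stood above parental #9. Its log2 fold change was -2.58 (SE 0.72) and did not pass the threshold (adjusted p 0.0211), whereas it did with the cell line as a block (0.00237). Without #9 it was -2.03.

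Dusp1, the immediate-early nuclear phosphatase that acts on p38 and JNK as well as ERK, went the other way in 5 of 6 lines. Parental values ran from 141 (#3) over 268 to 590.4 (#4). Resistant values were 107 (#3), 456 (#9), 1216 (#4), 2446 (#6), 3656 (#7) and 4348 (#10). The last 4 exceeded every parental sample, and #10 reached 21.3 times and #7 10.98 times the parental level of the same line, while #3 was at 0.76 times. Its log2 fold change of 1.99 (SE 0.72) was not called (adjusted p 0.0675) and was called with the cell line as a block (0.00754). P12 values of Dusp1 ran from 113 (#3) over 264 to 512 (#6).

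Dusp2, a nuclear phosphatase best known from immune cells, was barely detected in parental cells except in #9. It was listed at 0 in #3, was 0.813, 1.10, 0.689 and 2.20 in #4, #6, #7 and #10, all at or under the floor, and 252 in #9. Resistant cells were alike, at 3.65 to 11.2 in all 6 lines, with #4 at or under the floor. Within #9 the level was 32.0 times lower in resistant than in parental cells, the only line with a fall. The fitted log2 fold change was 0.84 (SE 1.596, adjusted p 0.778).

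Dusp8, which acts on JNK and p38, was higher in resistant cells of 6 of 6 lines. Parental values ran from 48.5 (#10) over 182 to 299 (#6), and resistant values from 342 (#3) over 979 to 2055 (#10). The groups did not overlap. The ratio within a line was smallest in #3 (1.52) and largest in #10 (42.4), so that the line with the lowest parental level had the highest resistant level. Its log2 fold change was 2.62 (SE 0.53, adjusted p 0.00288). The call was lost without #7, #9 or #10 (adjusted p 0.0157, 0.0105 and 0.0244).

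Dusp10, another phosphatase for JNK and p38, was split by line. Parental values were narrow, from 509 (#9) over 750.5 to 925 (#6). Resistant values were 2745 (#6), 3982 (#7) and 2096 (#10) in 3 lines and 657 (#3), 624.6 (#4) and 366 (#9) in the others. In #6, #7 and #10 the level was 2.63 to 5.66 times the parental one, and in #3, #4 and #9 it was 0.72 to 0.96 times. These 3 higher lines were also those with the largest ratios of Dusp1. The log2 fold change of 0.76 (SE 0.51, adjusted p 0.342) was not called.

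Dusp16, the third JNK and p38 phosphatase, ranged from 711 to 3714 over all samples. Parental values ran from 847 (#9) over 1349 to 2172 (#7), and resistant values from 1448 (#9) over 2235 to 3714 (#10). It was higher in 5 of 6 lines and slightly lower in #7, and the log2 fold change of 0.79 (SE 0.35) was not called (adjusted p 0.133).

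**Figure D3:**
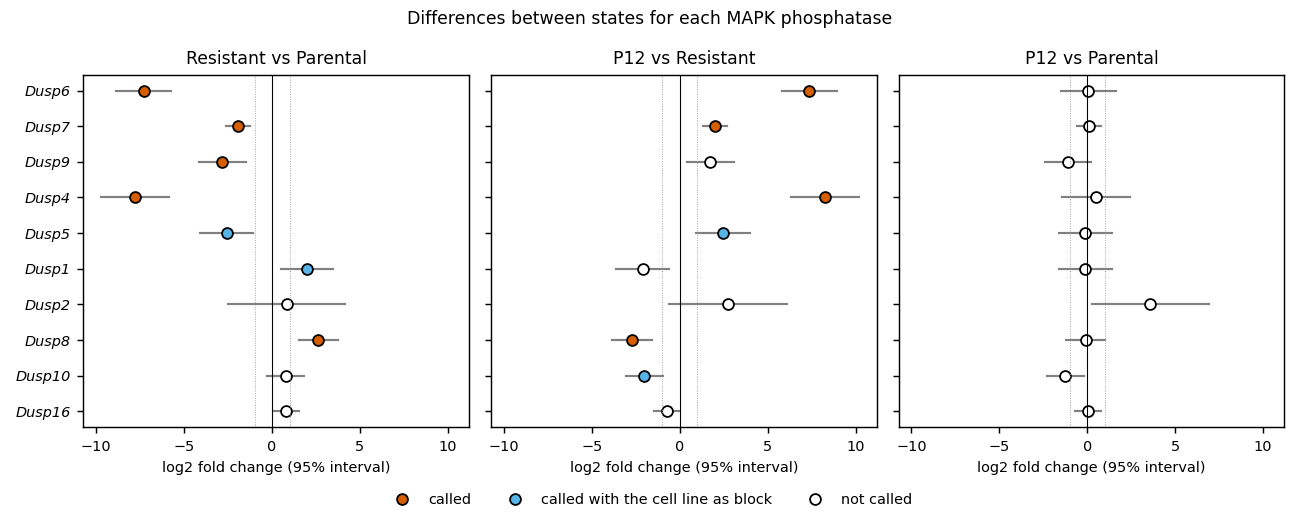
Log2 fold change of each member (x axis) with its 95% interval from limma for resistant against parental, P12 against resistant and P12 against parental cells; orange points were called, blue points were called only with the cell line as a block, white points in neither. Dusp6 (-7.31) and Dusp4 (-7.80) fall most and return by 7.37 and 8.29, and in the last panel no member is called.

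After 12 passages off the drug, most of these differences ran backwards. Against resistant cells, 4 of 10 members were called in P12, Dusp4, Dusp6 and Dusp7 higher and Dusp8 lower, where 2.13% of all genes were called, 1.28% higher and 0.850% lower. The log2 fold changes were 8.29 (SE 0.92, adjusted p 2.33e-05) for Dusp4, 7.37 (SE 0.75, 1.02e-05) for Dusp6, 2.01 (SE 0.33, 0.00117) for Dusp7 and -2.72 (SE 0.53, 0.00449) for Dusp8. Each of the 4 moved in the same direction in 6 of 6 lines. The P12 and resistant ranges did not overlap for Dusp4, Dusp6 and Dusp7, whereas for Dusp8 P12 of #6 (508) stood above resistant #3 (342). The Dusp7 call was lost without #3 (adjusted p 0.0171), and the Dusp8 call without #4, #7, #9 or #10 (0.0192, 0.03, 0.0152 and 0.0188) and in a fit of the 2 states alone (0.0187).

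When the lines entered as a block, 6 of 10 members were called against 4.52% of all genes, with Dusp5 (log2 fold change 2.46, adjusted p 0.00608 against 0.0479 without the block) and Dusp10 (-2.02, 0.000911 against 0.0207) in addition. Dusp10 was lower in P12 than in resistant cells of 6 of 6 lines, also in those where it had not been raised. Dusp1 was lower in 5 of 6 lines, and its log2 fold change of -2.10 (SE 0.72) was called in neither fit (adjusted p 0.0938, and 0.0101 with the block). Dusp9 was higher in 6 of 6 lines by 1.73 (SE 0.64, adjusted p 0.121).

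The 3 P5 samples were compared with the resistant samples of all 6 lines. Of the 10 members, 2 were called, Dusp4 (8.47, SE 1.13, adjusted p 0.00044) and Dusp6 (7.67, SE 0.91, 0.000129), against 0.378% of all genes. Within the 3 lines that have both states the mean log2 differences were 8.62 and 7.20. Both calls were lost in a fit of the compared states alone (0.0844 and 0.0559) and without the P5 samples of #7 and #9 (0.0956 and 0.0542), and that of Dusp4 without #3 (0.0221). Dusp7 was 908 (#3), 1439 (#7) and 741 (#9) in P5, and Dusp8 was 75.5, 111 and 231. Neither gene overlapped with its resistant range, although only 3 P5 samples were compared. Their log2 fold changes of 1.95 (SE 0.40, adjusted p 0.0145) and -2.95 (SE 0.65, 0.0222) missed the threshold.

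P12 cells were then set against the parental cells they came from. No member was called by limma, with or without the block, and 0.114% of all genes were called. At an unadjusted p under 0.05 there were 2 of 10 members, Dusp2 and Dusp10, and 2953 of 19300 genes. With the block there were 3 of 10 members and 4591 of 19300 genes. For Dusp6 the difference was 0.06 with a 95% interval from -1.49 to 1.62, and for Dusp7 0.08 with one from -0.60 to 0.77, so that differences of either sign within these bounds remain possible. The fit uses a common spread per gene for all 4 states. For Dusp6 the SD of log2 values was 2.32 in resistant, 0.40 in parental and 0.68 in P12 samples. The Dusp6 interval therefore also reflects the resistant samples, and the differences within the 6 lines ran from -0.35 to 0.83. Between lines the Dusp6 ratio of P12 to parental cells ran from 0.783 (#9) to 1.78 (#7). Dusp4 was above its parental level in 6 of 6 lines, by 1.06 to 2.45 times (log2 fold change 0.48, SE 0.92, adjusted p 0.832). The SE of Dusp4, too, reflects the resistant samples (SD 2.96, against 0.61 in parental and 0.71 in P12 samples).

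Dusp2 was the member whose P12 level departed most from the parental one. It was 429 in #3, 25.7 in #4, 10.1 in #6, 37.5 in #10 and 1640.0 in #9, while #7 stayed at 0.917. Against the floor of the parental sample, #3 was at least 143-fold higher, #10 at least 15.3-fold, #4 at least 9.41-fold and #6 at least 2.74-fold higher, and #9 was 6.51 times its parental level. Both samples of #7 were at or under the floor. In P5 the level was already 382 in #3 and 1207 in #9, and 2.78 in #7, which was at or under the floor. In limma the log2 fold change was 3.58 (SE 1.596, 95% interval 0.25 to 6.92) and was not called (adjusted p 0.29, and 0.0731 with the block). It lay between 2.26 and 4.77 over the alternatives. In the same P12 samples the summed level of the immune list ran from 149 to 226, with Cd68 alone at 131 to 211. Ptprc ran from 3.02 to 16.5 and Lyz2 from 0 to 28.7 (#7). Whether these levels bear on that of Dusp2 was not tested.

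Dusp10 ended below its parental level in 6 of 6 lines. P12 values ran from 152 (#9) over 315 to 531 (#7), and only #7 reached the lowest parental value of 509. The ratio of parental to P12 cells within a line was 1.32 in #7 and between 1.90 and 3.35 in the other lines. Its log2 fold change was -1.26 (SE 0.51, adjusted p 0.239), and with the block the adjusted p was 0.0353, also above the threshold of 0.01. The common spread again takes in the resistant samples (SD of Dusp10 1.39, against 0.29 in parental and 0.66 in P12 samples). Dusp9 was lower in 5 of 6 lines, by 6.77 times in #6 and 5.45 times in #4, and higher in #7 (log2 fold change -1.10, SE 0.64, adjusted p 0.422). Dusp1, Dusp5, Dusp8 and Dusp16 had log2 fold changes between -0.12 and 0.05, with lines on both sides of 0 for each gene. Within lines the differences ran from -2.05 to 1.51 for Dusp8 and from -1.61 to 0.93 for Dusp16. For Dusp5 they ran from -0.999 to 0.73, and for Dusp1 from -0.56 to 0.34.

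P5 cells gave 0 called members against parental cells in limma, where 0.0259% of all genes were called. At an unadjusted p under 0.05 there was 1 of 10 members, Dusp2, and 2003 of 19300 genes. Between P12 and P5 0 members were called, 0 had an unadjusted p under 0.05, and 0% of all genes were called, with 130 of 19300 at an unadjusted p under 0.05. For Dusp5 the lines kept their order between P5 and P12, at 888 (#3), 3587 (#7) and 364 (#9) in P5 and 809, 2926 and 669 in P12.

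To compare the members with each other, levels were divided by the length of the annotated exons and are given per kilobase. On this scale the 10 members summed to a median of 5417 in parental, 2275 in resistant, 6278 in P5 and 6223 in P12 samples. Dusp6 led in 6 of 6 parental samples, with 38.9% to 58.2% of the sum, followed by Dusp4 in all lines but #4, where Dusp5 came second. Dusp4 and Dusp6 together held 56.8% to 73.7% of the sum in parental and 0.187% to 9.03% in resistant samples, and the ranges did not overlap.

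In resistant cells the leading member per kilobase was Dusp1 in 4 lines and Dusp16 in the other 2, #3 and #9. In #10 Dusp1 alone made up 49.6% of the sum. Dusp10 came second in #6, #7 and #10, with 18.7% to 32.4%, and Dusp5 in #3 and #4, with 28.6% and 28.4%. In #9 the shares of Dusp16 and Dusp1 were 22.5% and 22.4%. Dusp8, although called higher, had a median share of 10.2%.

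In P12 cells Dusp6 led again in 5 lines and Dusp4 in #9 (40.0% against 30.4% for Dusp6), as it also did in P5 of #9 (43.4% against 26.6%). The share of both genes together was 60.1% to 80.0%, which overlapped with the parental range. Dusp2 made up 13.7% of the sum in P12 of #9 and 0.0063% in #7. The leading member was the same in 21 of 21 samples when the length of the longest coding transcript was used.

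**Figure D4:**
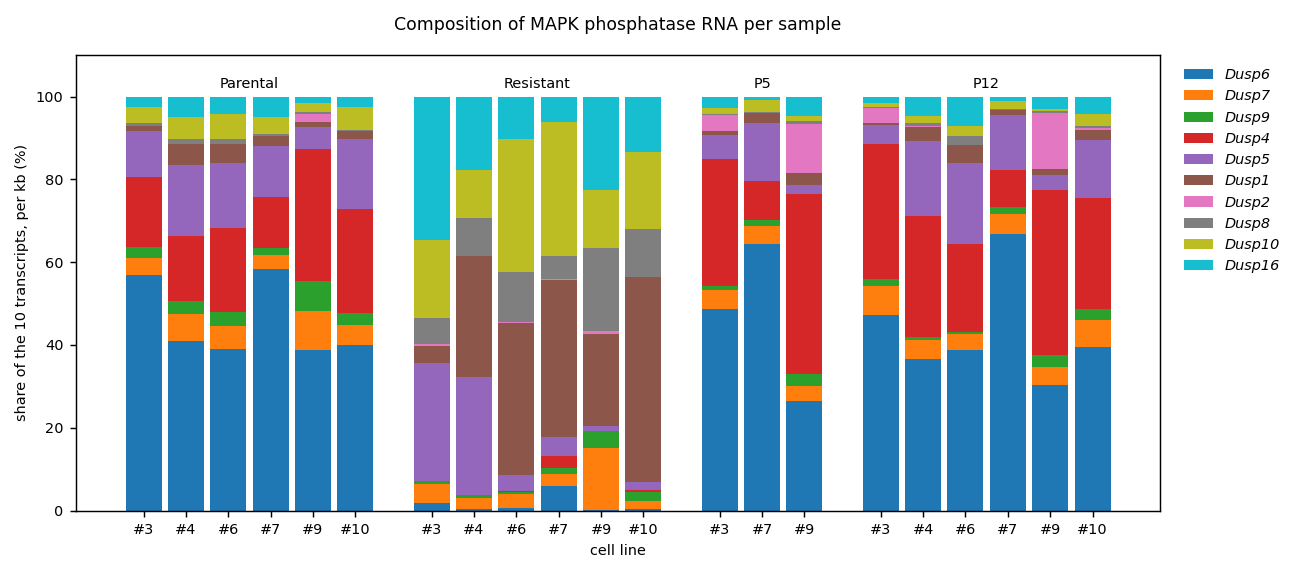
Share of each member in the summed level of the 10 members per kilobase of exon (y axis, %) in each of the 21 samples, grouped by state with the cell line on the x axis. Dusp6 and Dusp4 fill 56.8% to 73.7% of the parental bars and at most 9.03% of the resistant bars, where Dusp1 leads in 4 lines and Dusp16 in 2 and where the sum itself is lower (median 2275 against 5417), and Dusp2 appears in P5 and P12 of #3 and #9.

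Other genes of the pathway were counted from chosen lists, which are not whole families and were drawn up with earlier results of these data known. Of all tested genes, 2.73% were called lower and 2.57% higher in resistant against parental cells. Of 17 other genes known as feedback regulators or outputs of ERK, 10 were called lower in resistant cells and 0 higher, with a median log2 fold change of -2.65 against -0.0049 over all tested genes. The largest falls were those of Etv4 (-10.46) and Etv5 (-8.09), ETS transcription factors induced by ERK, Spry4 (-8.27), a feedback inhibitor of receptor signalling, and Fosl1 (-5.88), an AP-1 subunit. Etv4 was at most 4.58 in resistant cells and Spry4 at most 7.12, so that these sizes depend on the pseudocount. In P12 against resistant cells 10 of the 17 were called higher and 0 lower (1.28% and 0.850% of all genes). Against parental cells 0 of the 17 were called by limma (0.114% of all genes).

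Of 17 tested of 18 other dual-specificity phosphatases outside the MAPK phosphatase group, 2 were called higher in resistant cells, Dusp14 (2.30, SE 0.40, adjusted p 0.000864) and Dusp3 (1.87, SE 0.39, 0.00336), and 0 lower. Both are small phosphatases that lack the kinase-binding domain of the MAPK phosphatases. The same 2 genes were called lower in P12 against resistant cells (-2.60 and -2.52). The list's median was 0.04 in resistant against parental cells.

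Of 9 other phosphatases that act on MAP kinases, 0 were called in resistant against parental cells, and 1, Ptpn5, was called higher in P12 against resistant cells (4.198, SE 0.81, adjusted p 0.00407), which was named after its value was seen. With the block, Ptprr was called lower in resistant cells (-4.14, adjusted p 0.00111 against 0.0209 without the block), and Ptpn7 higher in P12 than in resistant (2.82, 0.00663 against 0.0266) and parental cells (3.61, 0.0069 against 0.0307), both also named after their values were seen. Of 13 kinases of the JNK, p38 and ERK5 branches 1 was called lower in resistant cells, Map2k6 (-2.71, SE 0.62, adjusted p 0.0064), a kinase that activates p38, and 0 higher. In P12 against resistant cells it was called higher with the block only (2.70, adjusted p 0.0031 against 0.0127). The medians of these 2 lists in resistant against parental cells lay between -0.21 and 0.12.

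**Figure D5:**
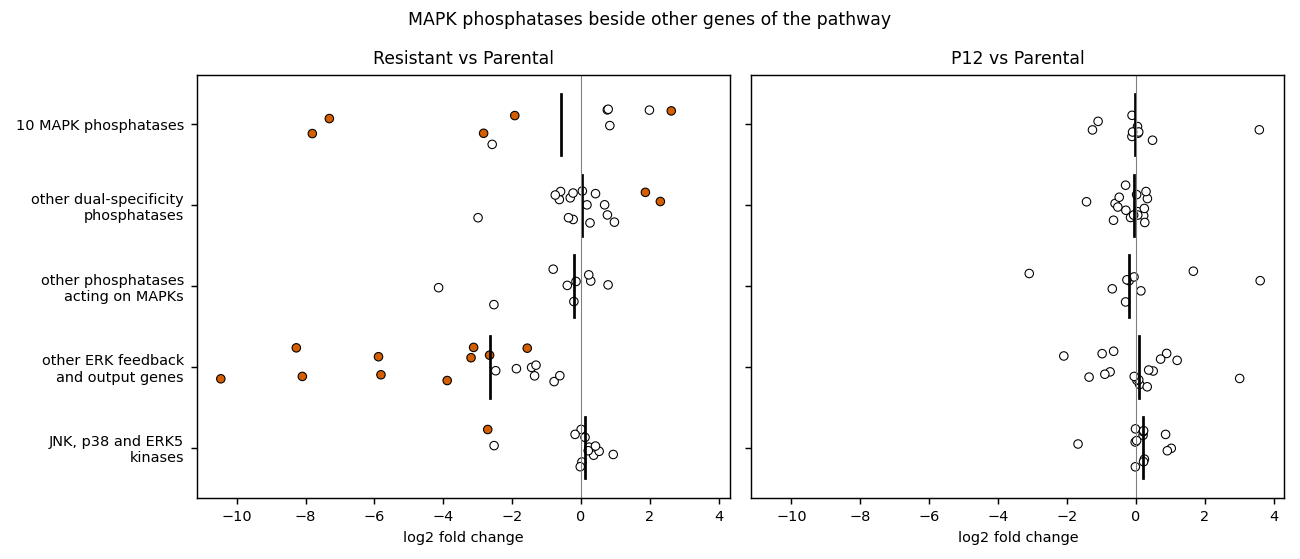
Log2 fold change (x axis) of every tested gene in 5 lists, for resistant against parental and P12 against parental cells; each point is a gene, orange points were called and black bars are list medians. The other ERK feedback and output genes have a median of -2.65 in resistant cells with 10 of 17 called, and in the P12 panel no point is called.

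Outside the 10 members, the genes whose log2 levels ran most like Dusp6 over the 21 samples were Spry4 (Pearson r 0.967), Thrb (0.959), Prkg2 (0.957), Ptpn9 (0.956) and Cdkn2aipnl (0.954), and among the members Dusp4 had an r of 0.961. These are descriptions over 21 samples that share 6 lines. Prkg2 ranged from 1793 to 12447 in parental and from 2.48 to 565 in resistant samples, and Ptpn9 from 1958 to 3241 and from 457 to 1182. With the mean of each line removed, 3 of the 5 genes stayed among the first 5, and by rank correlation 0 did.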

How the data were processed

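RNA-seq of 21 samples was analysed. Per the labels and the study's methods, the authors quantified transcripts with Salmon 0.12, imported them as gene counts with TXImport and deposited signal values, the counts normalized with DESeq2 1.18; the labels name mm10. The values are not whole reads, so no count test was run and depth was estimated from the spacing of low values (69.1% to 78.8% of them near a multiple). Genes with a value of 10 or more in 3 or more samples (19300 of 34478) were tested with limma 3.58.1 (R 4.3.3) on log2(value + 1), with a trend and all 4 states in one fit, under the study's thresholds. Samples were grouped by label, and lines pair across states because a line number names the same cells (mean correlation of deviations 0.24 between parental and resistant samples of a line, -0.05 between other lines). The steps were tested on simulated data, in which the spread of each gene was capped and equal in all states and no line effect was set. That test does not cover the wider spread of some members in resistant samples or the pairing by line. The study's methods name a HiSeq or a NovaSeq system for the RNA-seq. The sources assign neither sequencer to samples, so no batch could be compared.

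The members and lists were chosen with earlier results of these data known. Named genes are the 10 members, up to 4 rises and 4 falls per list called in resistant cells, the 5 genes most like Dusp6, and Trp53. One further allele and its gene are not reported here. Alternatives were pseudocounts of 0.5 and 8, no filter, a mean of at least 100, no trend, upper quartile scaling, a replicate block, an adjusted p below 0.05, a fit of only the 2 states compared, leaving out every line in turn and no P5 of #7 and #9; parental #9 was left out as an alternative chosen after seeing the data. Promoters came from RefSeq (GRCm38.p6). No interval covers more than the spread between lines. Python 3.11.15 with pandas 2.3.3 and matplotlib 3.10.9 was used.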

Additional observations from a re-analysis of the deposited data

Results flagged for a closer look

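Among the 30 groups of 6 samples tested (10 members in the parental, resistant and P12 states), 4 had 1 sample far from the others, where chance gives about 5% of groups. All 4 were the parental sample of line #9. Its Dusp2 was 252 normalized counts against 2.20 or less in the other parental samples, its Dusp7 2253 against 1032 in the next sample, and its Dusp9 1457 against 446. Its Dusp5 was the lowest at 989.9, and the next value was 1619. The same sample had the lowest summed level of 8 ductal genes of the parental samples (18440.0 against a median of 255894), and whether the 2 facts are linked was not tested.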

How the results depend on the processing

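The log2 fold changes of the called members kept their direction under every alternative tried, and the number of members called in P12 against parental, P5 against parental and P12 against P5 cells was 0 under each. The calls of Dusp4, Dusp6 and Dusp7 in resistant against parental cells were kept under every alternative. The number called in P5 against resistant cells moved from 2 to 4 at an adjusted p below 0.05, and to 0 with the compared states alone and without P5 of #7 and #9, both of which leave fewer samples. Leaving out a line gave 1 (without #3) to 2. In resistant against parental cells, leaving out a line gave 3 (without #9) to 4. The replicate block, pairing samples by cell line, gave 7 members in resistant against parental and 6 in P12 against resistant cells, and changed no other call of a member.

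Values that changed sign belonged to members that were not called, and the cause was not tested. With a pseudocount of 8, Dusp2 in resistant against parental cells was -0.10. With the replicate block, P5 against parental gave -0.068 (Dusp6), -0.20 (Dusp7), 0.060 (Dusp8) and 0.18 (Dusp16), and P12 against P5 gave 0.13 (Dusp6), -0.16 (Dusp8) and -0.13 (Dusp16). Without P5 of #7 and #9, P5 against parental gave -0.95 (Dusp1) and -0.093 (Dusp7), and P12 against P5 gave 0.84 (Dusp1), 0.45 (Dusp9) and 0.17 (Dusp10).

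When a line or a parental sample was left out, P12 against parental ranged from -0.29 to 0.061 for Dusp5, -0.090 to 0.15 for Dusp6, -0.12 to 0.33 for Dusp7, -0.42 to 0.29 for Dusp8 and -0.13 to 0.38 for Dusp16. P5 against parental ranged from -0.20 to 0.56 for Dusp1, -0.073 to 0.88 for Dusp6, -0.35 to 0.48 for Dusp7, -0.86 to 0.13 for Dusp8 and -0.61 to 0.49 for Dusp16. P12 against P5 ranged from -0.63 to 0.12 for Dusp1, -0.15 to 0.23 for Dusp7, -0.12 to 0.73 for Dusp8, -0.50 to 0.13 for Dusp10 and -0.12 to 0.48 for Dusp16. Upper quartile scaling moved the median of all genes from 0.02 to 0.11 in P12 against resistant and from 0.03 to 0.13 in P5 against resistant cells, with the same number of members called. Depth limits what can be said of Dusp2 in 5 parental samples and of Dusp4 in resistant #4 and #9.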
